A study of Mus musculus with 12 samples.

Results

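The genes described here are 32 genes of cell division, followed in 12 mouse hearts. They were taken as a set from the array annotation by symbol, and each gene was represented by its probe with the highest mean over all 12 hearts in the authors' value table. The set has 3 phases. G1 entry is represented by Ccnd1, Ccnd2, Cdk4, Ccne1 and Ccne2, DNA replication by Cdc6, Mcm2 to Mcm7, Pcna, Rrm1, Rrm2, Tyms and Tk1, and mitosis by Ccna2, Ccnb1, Ccnb2, Cdk1, Cdc20, Mki67, Top2a, Plk1, Cenpa, Aurka, Aurkb, Birc5, Bub1, Kif11 and Ube2c. A probe was found for 30 of the 32 genes, out of 19057 genes with a probe. Ccnb1 and Mki67 had none under these symbols, so their expression was not analysed here. Ccnb2 and Bub1 had probes that passed detection on no array. The other 28 were tested among 10169 genes: 5 of G1 entry, 12 of replication and 11 of mitosis.

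The hearts model myotonic dystrophy type 1, a disease of an expanded CTG repeat whose RNA carries long runs of CUG. The 12 hearts fell into 5 groups, all of strain FVB, with 1 array per heart. The first group, of 3 hearts, was taken 1 week and the second, also of 3, 72 h after induction, from bitransgenic EpA960/MCM mice of 2 to 4 months that received tamoxifen at 20 mg/kg, given as a single injection or on 5 days in a row, to switch on the repeat RNA in the heart. The next group was 3 MCM hearts, labelled untreated, from adult mice with the tamoxifen-activated recombinase, followed by 2 adult wildtype hearts, and the last was 1 wildtype heart of embryonic day 14 (E14). The sources used here do not give the schedule for each time. Because the MCM mice are labelled untreated, the effects of tamoxifen itself and of the RNA it induces cannot be told apart in any comparison below. The labels do not say whether the E14 heart was 1 embryo or a pool.

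A cell that divides first passes G1, where D-type cyclins with Cdk4 and E-type cyclins release the E2F factors that switch on replication genes. It then copies its DNA with the MCM helicase and nucleotides made by ribonucleotide reductase and thymidylate synthase, and finally condenses and separates its chromosomes under Cdk1, Plk1 and the Aurora kinases. Heart muscle cells divide in the embryo and largely stop soon after birth, while fibroblasts, endothelium and immune cells of the adult heart can still divide. In RNA of a whole heart, fewer cells of a type and less RNA per cell cannot be told apart.

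Between 14202 and 16774 probes were detected per array, with detection meaning a detection p below 0.01. The dimmest 1% of probes, read as background, ended at a signal of 54.4 to 59.1 on the 6 arrays of induced hearts and 63.0 to 76.2 on the other 6, so background and induction cannot be told apart. All 8 heart muscle markers with a probe, Myh6 and Tnni3 among them, were detected in every heart. Signals below are background-corrected, quantile-normalized log2 signals, and a difference is always that of log2 signals. A gene counts as changed where the Benjamini-Hochberg adjusted p over all 10169 genes from limma was below 0.05, and ± gives the standard error of a difference unless SD is written. The E14 array detected all 28 tested genes, so each entered the test whatever its level in the adult hearts. Of the 28, 10 were detected in all 12 hearts (Ccnd1, Ccnd2, Cdk4, Mcm4, Mcm5, Mcm6, Mcm7, Rrm1, Tyms and Cenpa), and 4 on the E14 array only (Ccne2, Ccna2, Kif11 and Ube2c). The heart 72 h replicate 2 stood apart from both others of its group and is given on its own throughout. It was high in many genes of the set, so leaving it out narrows their spread. Calls gained without it are therefore no separate support.

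**Figure D1:**
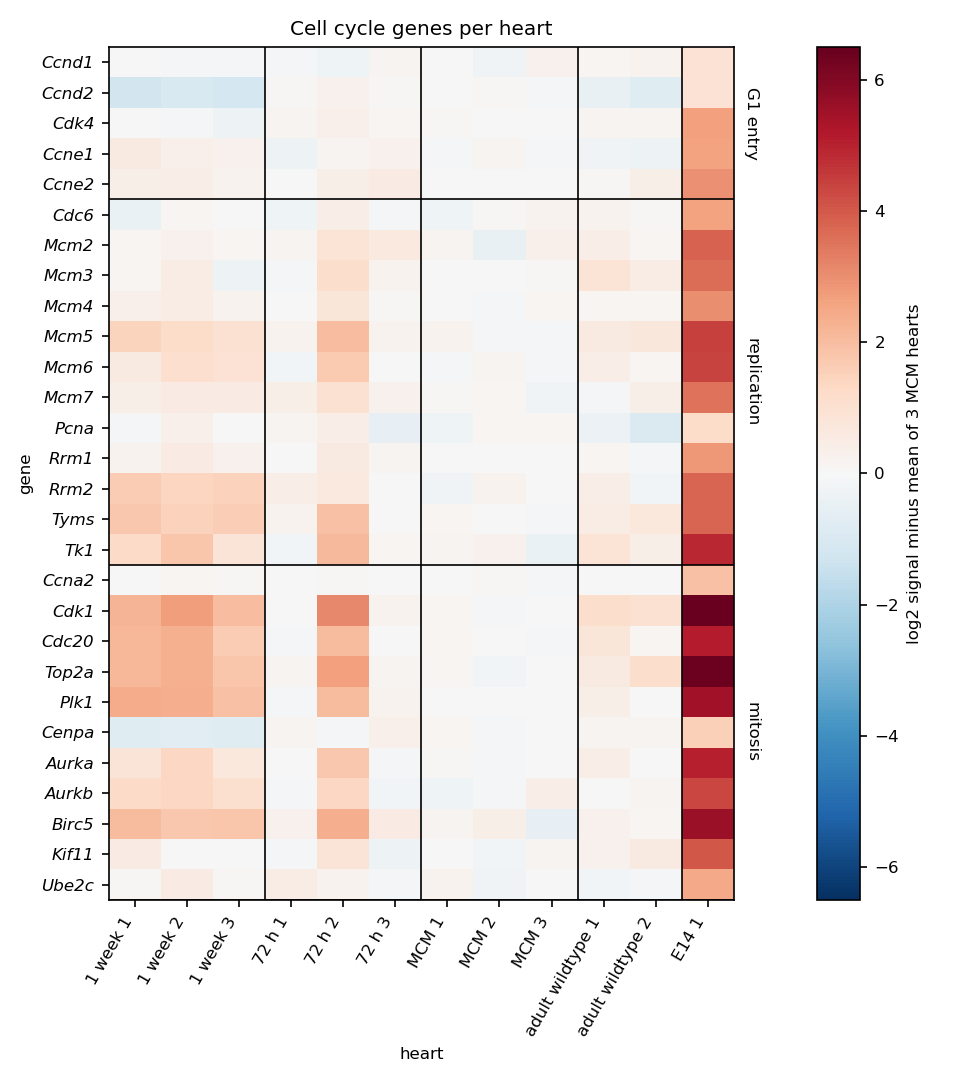
Log2 signal of the 28 tested genes (rows, by phase) in each of the 12 hearts (columns), minus the mean of the 3 MCM hearts; red is above and blue below MCM. The E14 column is red in every row, most mitotic and several replication rows are red in the 1 week hearts and in 72 h replicate 2, and Ccnd2 and Cenpa are blue at 1 week.

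At 1 week after induction, genes of mitosis were the most raised of the set, a few replication genes rose with them, and no G1 gene rose. Compared with MCM hearts, 10 of 28 genes rose (35.7%) and 2 fell (7.14%), where 54.0% of all genes tested changed, 27.3% higher and 26.7% lower. The share that rose was thus not far above that of all genes and the share that fell was below it, and neither difference was tested. The median difference over the 28 genes was 0.37, beside 0.00 over all genes, and 5 of the 28 were dark, that is below detection, in every heart of both groups. By phase, 6 of 11 mitotic genes rose and 1 fell (median 1.22), 4 of 12 replication genes rose and none fell (median 0.41), and none of 5 G1 genes rose and 1 fell (median -0.07). The 1 week hearts lay wholly above the MCM hearts in 17 of 28 genes, beside 32.9% of all genes, and wholly below them in 2, beside 31.7%. Of the 17, 1 (Ccne2) was dark in both groups. Without 72 h replicate 2, which enters only through the shared estimate of the spread, 15 rose (53.6%, beside 30.4% of all genes) and 2 fell. Leaving out a heart high in these genes shrinks their standard errors with the differences unchanged (Cdk1, from 0.61 to 0.18). The higher count thus follows from that choice and does not set these genes apart. The labels mark the 1 week hearts with a letter R that they do not explain.

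Cdk1, the kinase that drives entry into mitosis, had log2 signals of 7.64, 8.11 and 7.43 in the 1 week hearts, against 5.56, 5.31 and 5.37 in the MCM hearts. It was detected in all 3 hearts at 1 week and in no MCM heart, and the groups lay far apart. The difference was 2.31 ± 0.61 (adjusted p = 0.00731, limma), which is a rise of at least 1.83-fold, since a gene dark in every MCM heart has only a bound there. Plk1, the kinase that matures centrosomes and spindles, had 7.99, 7.94 and 7.47 at 1 week and 5.54, 5.56 and 5.62 in MCM hearts, again with no overlap. It rose by 2.23 ± 0.43 (adjusted p = 0.00103, limma), at least 1.93-fold. Top2a, the topoisomerase that untangles chromosomes, rose by 2.09 ± 0.52 (adjusted p = 0.00514, limma; at least 1.29-fold), with 7.30, 7.46 and 6.91 at 1 week and 5.28, 4.95 and 5.17 in MCM hearts. All 3 genes were thus dark in the MCM hearts and above detection in every 1 week heart.

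Cdc20, the activator of the anaphase-promoting complex, had 8.80, 8.95 and 8.28 in 1 week hearts and 6.79, 6.66 and 6.53 in MCM hearts. It rose by 2.02 ± 0.46 (adjusted p = 0.00315, limma) and was detected in 1 of 3 MCM hearts. Birc5, the survivin subunit of the chromosomal passenger complex, had 8.58, 8.26 and 8.32 at 1 week, against 6.67, 6.88 and 5.95 in MCM hearts, where it was dark. The rise was 1.88 ± 0.43 (adjusted p = 0.00334, limma), at least 2.89-fold, the largest bound of the set in this comparison. Aurkb, the kinase of the same complex, rose by 1.22 ± 0.34 (adjusted p = 0.0107, limma) and was detected in 2 of 3 hearts at 1 week and in no MCM heart, too dim for a bound above 1-fold. Its relative Aurka, which acts at the spindle poles, had 6.24, 6.74 and 6.10 at 1 week and 5.46, 5.31 and 5.41 in MCM hearts, with an adjusted p of 0.0537 (limma) for a difference of 0.96 ± 0.39. Aurka passed the test without 72 h replicate 2 (adjusted p = 0.000262, limma). Ccna2, the cyclin of S phase and early mitosis, Kif11, a spindle motor, and Ube2c, the ubiquitin enzyme that works with Cdc20, were dark in all adult hearts.

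Cenpa, the histone variant that marks centromeres, went the other way. Its log2 signals were 11.60, 11.68 and 11.56 in 1 week hearts, against 12.49, 12.26 and 12.35 in MCM hearts. The groups did not overlap, and the 1 week hearts varied little (SD 0.06, n = 3). It fell 1.69-fold (difference -0.76 ± 0.11, adjusted p = 0.000144, limma). A second probe of Cenpa was detected on the E14 array only. Its difference at 1 week (-0.52) therefore compares signals below detection.

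The promoters of the mitotic genes that rose are shown, except that of Aurkb, for which no window was available, together with that of Cenpa as the mitotic gene that fell. They are 150 bases before the start from RefSeq (assembly GRCm38.p6), read 5′ to 3′ on the gene's strand. Capitals mark 3 kinds of motif on either strand, named as they are usually called: E2F (TTTCCCGC, TTTCGCGC, TTTGCCGC or TTTGGCGC), CHR (TTTGAA or TTTAAA) and CCAAT box (CCAAT).
Cdk1, chr10:69352913-69353062, minus strand: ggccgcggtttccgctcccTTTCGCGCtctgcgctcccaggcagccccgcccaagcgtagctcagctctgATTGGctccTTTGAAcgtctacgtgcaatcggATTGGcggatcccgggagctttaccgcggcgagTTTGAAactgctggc
Plk1, chr7:122159285-122159434, plus strand: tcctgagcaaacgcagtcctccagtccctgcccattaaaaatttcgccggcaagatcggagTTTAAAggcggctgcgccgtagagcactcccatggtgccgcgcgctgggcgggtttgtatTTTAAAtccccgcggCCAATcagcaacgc
Top2a, chr11:99024190-99024339, minus strand: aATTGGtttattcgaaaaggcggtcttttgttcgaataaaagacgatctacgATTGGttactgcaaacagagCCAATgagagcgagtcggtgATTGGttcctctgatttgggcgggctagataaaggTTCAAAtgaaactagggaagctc
Cdc20, chr4:118437344-118437493, minus strand: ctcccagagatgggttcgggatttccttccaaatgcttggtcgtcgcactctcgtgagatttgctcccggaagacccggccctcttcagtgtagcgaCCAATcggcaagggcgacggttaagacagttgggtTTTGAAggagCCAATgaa
Birc5, chr11:117849087-117849236, plus strand: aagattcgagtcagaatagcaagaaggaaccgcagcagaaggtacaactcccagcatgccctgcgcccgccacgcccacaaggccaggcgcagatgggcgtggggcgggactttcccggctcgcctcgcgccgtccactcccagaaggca
Cenpa, chr5:30666736-30666885, plus strand: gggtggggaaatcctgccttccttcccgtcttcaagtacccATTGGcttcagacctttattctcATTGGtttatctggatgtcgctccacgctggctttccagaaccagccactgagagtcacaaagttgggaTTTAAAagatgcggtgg
Windows from 250 bases before to 50 bases after the start were available for 26 of the 32 genes, of which 1 had more than 1 start. The CHR letters stood in 12 of 13 windows of mitotic genes (92.3%), beside 27.6% of all 32851 windows, and the CCAAT letters in 12 of 13 as well, beside 37.4%. The E2F letters stood in 1 of these 13, that of Cdk1. The 13 include the windows of Ccnb1, Mki67, Ccnb2 and Bub1, whose expression was not tested. The window of Birc5 held CHR letters 1 time, before the bases shown, and no CCAAT letters. The windows of Cdk1, Plk1, Top2a and Cdc20, which rose at 1 week, and of Cenpa, which fell, held both.

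Among replication genes, Tyms, Rrm2 and Tk1 of nucleotide supply rose, and Rrm1 did not pass the test with its chosen probe. Of the 6 helicase genes 1 passed. Tyms, thymidylate synthase, had 8.92, 8.68 and 8.75 in 1 week hearts and 7.29, 7.18 and 7.03 in MCM hearts. It was detected in every heart, the groups did not overlap, and it rose 3.07-fold (1.62 ± 0.38, adjusted p = 0.00391, limma). Rrm2, the small subunit of ribonucleotide reductase that limits its activity in S phase, had 7.65, 7.35 and 7.45 at 1 week and 5.75, 6.20 and 5.98 in MCM hearts, where it was dark. It rose by 1.51 ± 0.21 (adjusted p = 0.000136, limma), at least 1.55-fold. Rrm1, the large subunit of the same enzyme, differed by 0.33 ± 0.16 (adjusted p = 0.0905, limma). A second probe of Rrm1, detected in all 12 hearts, rose by 0.74 (adjusted p = 0.0224, limma over probes). Tk1, the thymidine kinase of the salvage route, rose by 1.29 ± 0.49 (adjusted p = 0.0432, limma; at least 1.23-fold), and this call was lost in 11 of 19 other settings, 7 of them leaving out 1 heart.

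The 6 helicase genes share 1 complex, and at 1 week only Mcm5 passed the test. Mcm5 had 9.08, 8.82 and 8.60 in 1 week hearts and 7.86, 7.50 and 7.53 in MCM hearts, a rise of 2.30-fold (1.20 ± 0.38, adjusted p = 0.0181, limma). Its adjusted p moved to at most 0.0645 on leaving out 1 week replicate 1, MCM replicate 2 or MCM replicate 3. Mcm6 had 8.41, 8.93 and 8.74 at 1 week, against 7.75, 7.99 and 7.72 in MCM hearts, a difference of 0.87 ± 0.39 (adjusted p = 0.0762, limma). The 1 week hearts were also wholly above MCM hearts in Mcm7 (0.48 ± 0.20) and Mcm4 (0.35 ± 0.17), without passing. Mcm4, Mcm6 and Mcm7 passed without 72 h replicate 2 (adjusted p = 0.00583, 0.000243 and 0.0188, limma). Mcm2 and Mcm3 overlapped between the groups, with differences of 0.17 ± 0.23 and 0.09 ± 0.28, and Mcm3 was dark in every heart of both. Cdc6, the loader of the helicase, differed by -0.09 ± 0.22, and Pcna, the sliding clamp, by 0.06 ± 0.25, with 95% intervals of -0.57 to 0.40 and -0.48 to 0.60. Cdc6 was detected in only 1 of 3 hearts of each group.

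The promoter of Mcm6 is shown because its window held the most E2F letters of the set.
Mcm6, chr1:128359706-128359855, minus strand: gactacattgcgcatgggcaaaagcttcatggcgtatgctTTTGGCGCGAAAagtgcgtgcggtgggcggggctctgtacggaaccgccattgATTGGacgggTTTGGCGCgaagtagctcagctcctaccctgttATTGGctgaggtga
Of 12 windows of replication genes, 5 held E2F letters (41.7%), beside 2.26% of all windows. In Mcm6, 2 of the 3 matches overlap, which gives the run of 12 capitals.

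The 4 probes of Mcm6 did not give the same picture. A second probe rose by 1.33 at 1 week (adjusted p = 0.00588, limma over probes). Another rose by 2.17 (adjusted p = 7.26e-05), with 8.83, 8.78 and 8.59 at 1 week and 6.41, 6.70 and 6.56 in MCM hearts, yet had 5.94 in the E14 heart, while the chosen probe had 12.19 there. The last was detected in the E14 heart only. For Ccnd2, Birc5 and Cdc20 every further probe that passed the filter moved the same way as the chosen one, while the second probe of Cdk4 rose by 0.80 where the chosen one did not pass. Further probes of Tyms (0.66), Tk1 (0.34) and Top2a (0.04) did not pass, while another of Top2a (0.72) and one of Rrm2 (0.63) did. Those of Mcm7 (-0.07) and Mcm4 (-0.18 and -0.23) did not rise. The second probe of Cdk4 and these of Tyms, Tk1, Top2a, Rrm2, Mcm7 and Mcm4 were each detected on only 1 or 2 arrays.

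In G1 entry, Ccnd2, a D-type cyclin that activates Cdk4, fell. It had 10.87, 11.04 and 10.90 in 1 week hearts, against 12.04, 12.13 and 12.004 in MCM hearts. The gap was wide beside the spread within groups (SD 0.09 and 0.06, n = 3 each). Ccnd2 fell 2.17-fold (difference -1.12 ± 0.11, adjusted p = 1.13e-05, limma), and both further probes detected in all hearts fell too (by 1.15 and by 0.91). Its relative Ccnd1, another D-type cyclin, had 11.52, 11.48 and 11.50 at 1 week and 11.54, 11.34 and 11.83 in MCM hearts, a difference of -0.07 with a 95% interval of -0.35 to 0.22. Cdk4, the kinase that D-type cyclins activate, differed by -0.13 ± 0.10 (adjusted p = 0.304, limma). The E-type cyclins Ccne1 and Ccne2 lay at or near background in adult hearts, with differences of 0.39 ± 0.18 and 0.35 ± 0.16 (adjusted p = 0.084 and 0.091, limma).

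**Figure D2:**
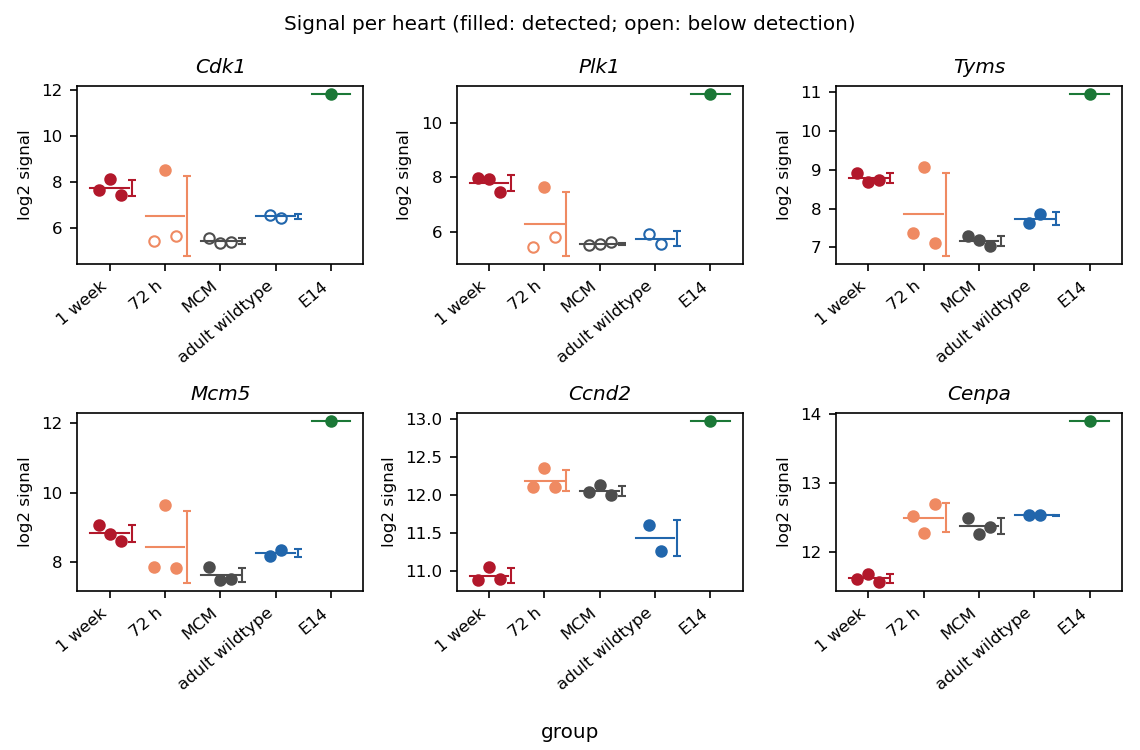
Log2 signal per heart of 6 genes in the 5 groups, each point a heart (filled where detected, open where not), with a line at the group mean and a bar of 1 SD where a group has more than 1 heart. Cdk1, Plk1, Tyms and Mcm5 are high in all 1 week hearts and in 72 h replicate 2, and Ccnd2 and Cenpa are low in the 1 week hearts, with E14 above every adult heart in all 6.

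At 72 h no gene of the set changed, and the group was split between 1 heart with high mitotic and replication genes and 2 hearts near MCM. Of the 28 genes, 0 passed the test with limma, beside 0.295% of all genes, and 3 had an unadjusted p below 0.05 (Mcm2, Mcm7 and Birc5), among 763 of all genes. The median difference was 0.35, where that over all genes was close to 0. Wholly above the MCM hearts lay 3 genes (Cdk4, Mcm7 and Top2a), beside 5.36% of all genes, and wholly below them lay none, beside 5.64%. Without 72 h replicate 2 again none passed.

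Cdk1 had 5.40, 8.52 and 5.62 in the 72 h hearts, against 5.56, 5.31 and 5.37 in the MCM hearts. Replicate 2 was thus higher than every 1 week heart, and both others were dark as in MCM. Plk1 had 5.47, 7.65 and 5.82 in the 72 h hearts, against 5.54 to 5.62 in MCM hearts. Tyms had 7.37, 9.09 and 7.13 in the 72 h hearts, against 7.03 to 7.29 in MCM hearts, and Mcm5 had 7.87, 9.64 and 7.83 at 72 h, against 7.50 to 7.86 in MCM hearts. The same heart stood out each time, by 1.72 or more over the higher of the others. Over the set, replicate 2 lay above all MCM hearts in 26 of 28 genes, above both other 72 h hearts in 23 and above all 1 week hearts in 20, among them 11 of 12 replication genes. Such counts over all genes are not given here, so these do not set the genes apart from others. The beads behind each probe, 19 to 69 per array, gave a standard error of at most 9.49% of the signal for these genes on that array.

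In mitosis the median of replicate 2 was 1.73 above the MCM mean, with 8 of 11 genes detected. In replicates 1 and 3 it was -0.01 and 0.04, with 1 and 2 genes detected. In replication the medians were 0.07, 0.93 and 0.11 in replicates 1, 2 and 3, and in G1 entry -0.03, 0.30 and 0.18. The 1 week hearts had mitotic medians of 1.26, 1.34 and 1.06 above the MCM mean and replication medians of 0.35, 0.51 and 0.41. Replicate 2 differed from the 1 week hearts in the genes that fell there: its Ccnd2 was 12.36 and its Cenpa 12.26, near the MCM hearts. It also differed in Rrm2, which rose at 1 week, while its signal of 6.63 was not detected.

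**Figure D3:**
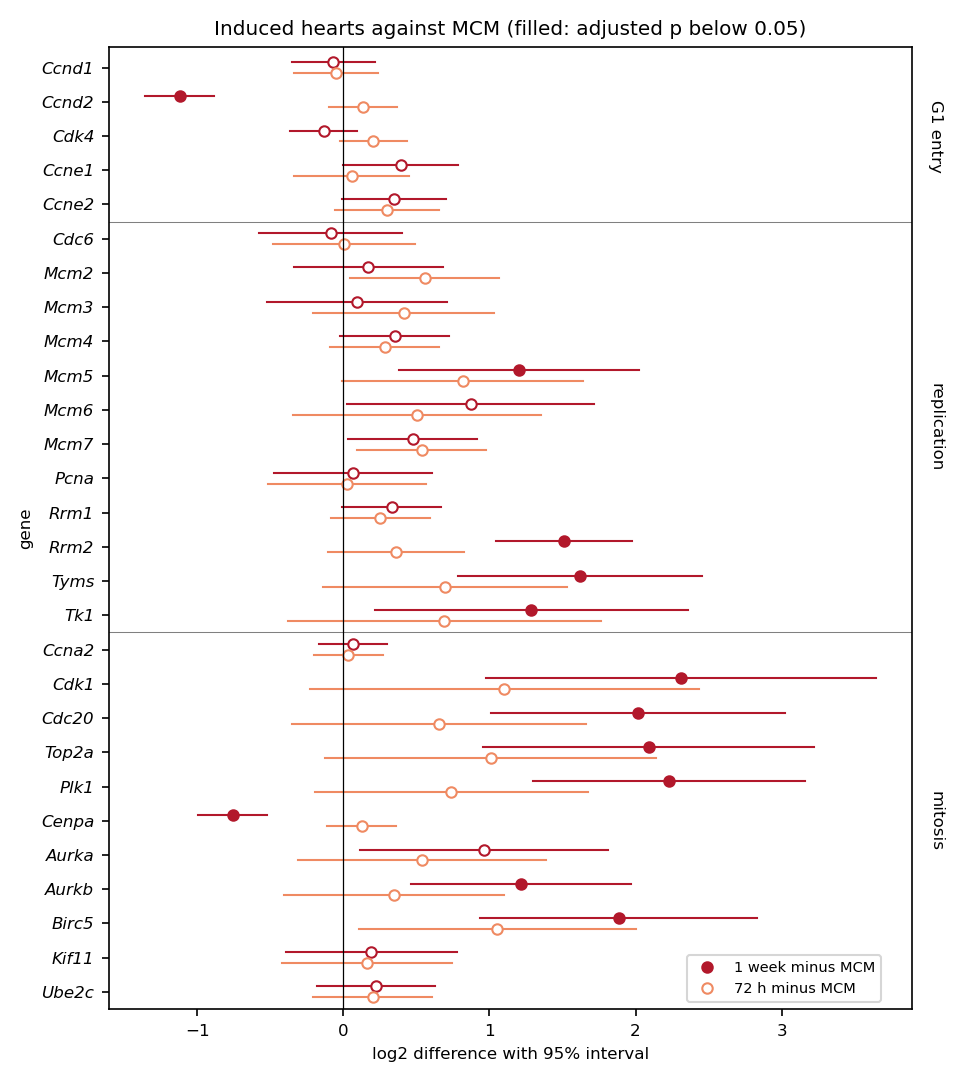
Difference of log2 signal for each of the 28 genes in 1 week minus MCM hearts (dark red) and 72 h minus MCM hearts (orange), with 95% intervals; both share the 3 MCM hearts, and filled points passed an adjusted p of 0.05. Filled points are all at 1 week, 10 to the right of 0 and, for Ccnd2 and Cenpa, 2 to the left.

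Set directly against the 72 h hearts, the 1 week hearts had 3 genes higher (Rrm2, Cdc20 and Plk1) and 3 lower (Ccnd2, Cdk4 and Cenpa), beside 45.5% of all genes changed, 23.2% higher and 22.3% lower. Both shares of the set were 10.7%, below those of all genes. Plk1 was higher by 1.49 ± 0.43 (adjusted p = 0.0139, limma) and Cdc20 by 1.36 ± 0.46 (adjusted p = 0.0305), each detected in 1 of 3 hearts at 72 h. Rrm2, dark at 72 h, was higher by 1.15 ± 0.21 (adjusted p = 0.00118, limma), at least 1.51-fold. Ccnd2 was lower by 2.39-fold (-1.26 ± 0.11, adjusted p = 7.7e-06, limma) and Cenpa by 1.84-fold (-0.88 ± 0.11, adjusted p = 8.17e-05). Cdk4 was lower by 1.27-fold (-0.34 ± 0.10, adjusted p = 0.0198, limma), with 9.95, 9.81 and 9.61 at 1 week and 10.10, 10.24 and 10.04 at 72 h. The falls did not overlap between the groups, whereas of the rises only that of Rrm2 did not. This comparison rests on 72 h replicate 2: without it 13 genes were higher (46.4%, beside 28.2% of all genes) and 3 lower, with Cdk1 higher by 2.21 and Tyms by 1.54. Since that heart was high in most of these genes, leaving it out raises this count by itself.

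The MCM and adult wildtype hearts differed in 1 gene of the set, which was higher in MCM, beside 5.74% of all genes, 3.11% higher. Ccnd2 had 12.04, 12.13 and 12.004 in MCM hearts and 11.60 and 11.27 in adult wildtype hearts, and was 1.54-fold higher in MCM (0.62 ± 0.12, adjusted p = 0.00933, limma). It was also the gene that differed between 72 h and adult wildtype hearts (0.76, adjusted p = 0.00251, limma), beside 7.58% of all genes, 3.89% higher. The call was lost in both comparisons without adult wildtype replicate 2. MCM hearts lay wholly below adult wildtype hearts in 10 genes, beside 23.2% of all genes, and wholly above in 3, beside 20.4%. Of the 10, 6 were dark in every heart of both groups (Cdk1 and Top2a among them), as was 1 of the 3, so these compare signals below detection. Tyms, detected in all, had 7.03 to 7.29 in MCM hearts and 7.63 and 7.86 in adult wildtype hearts. Without 72 h replicate 2, Mcm5 and Tyms were lower in MCM than in adult wildtype hearts (differences of -0.64 and -0.58), and Cdk1 and Top2a passed the test too, with signals below detection in both groups.

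With adult wildtype hearts in place of MCM, 7 genes rose at 1 week (25.0%, beside 24.5% of all genes) and 2 fell (7.14%, beside 24.5%), of 49.0% of all genes changed. Plk1 (2.05, at least 1.90-fold, adjusted p = 0.00422, limma), Birc5 (1.70, at least 2.85-fold) and Rrm2 (1.38, at least 1.53-fold) rose and were dark in both adult wildtype hearts, Cdc20 (1.58) was detected in 1 of the 2 adult wildtype hearts, and Aurkb (1.16) was too dim for a bound. These 5 also rose relative to MCM. Tyms (1.04, adjusted p = 0.0626, limma), Top2a (1.23, adjusted p = 0.0997), Mcm5 (0.56, adjusted p = 0.288) and Tk1 (0.64, adjusted p = 0.359) rose relative to MCM but did not pass here. Pcna (0.72, adjusted p = 0.0493, limma), detected in 1 adult wildtype heart, and Ccne1 (0.68, adjusted p = 0.0148), dark in both, passed here as well. Ccnd2 (-0.50, adjusted p = 0.0051, limma) and Cenpa (-0.92, adjusted p = 0.000117) fell. Cdk1 was 1.24 ± 0.68 above adult wildtype hearts (adjusted p = 0.153, limma) and passed without 72 h replicate 2 (adjusted p = 0.000111). The difference of Ccnd2 was -1.12 against MCM hearts and -0.50 against adult wildtype hearts, 2 controls that themselves differed in this gene.

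The embryonic heart had the highest signal of all 12 hearts for each of the 28 tested genes. All 28 were lower at 1 week (beside 31.1% of all genes), at 72 h (31.4%), in MCM (32.4%) and in adult wildtype hearts (30.4%), with limma. The median difference from E14 was -2.91 at 1 week, -3.15 at 72 h, -3.71 in MCM and -3.28 in adult wildtype hearts, beside -0.02 to -0.07 over all genes. Since 10 of the 28 entered the test through the E14 array alone, these counts do not stand for the whole set. Of the 10 genes detected in all 12 hearts all were lower in each comparison. The lone E14 array has no spread of its own, and that of the other groups was used for it.

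Cdk1 had 5.31 to 8.52 in adult hearts and 11.84 in the E14 heart, and was at least 31.2-fold lower in adult wildtype hearts (-5.35 ± 0.92, adjusted p = 0.000372, limma). Birc5 was at least 37.6-fold lower and Top2a at least 24.5-fold lower in the same comparison. At 1 week, where both are detected, Cdk1 was 17.3-fold and Birc5 13.2-fold below E14 (adjusted p = 0.00144 and 0.000268, limma). The smallest differences between adult wildtype and E14 hearts were those of Ccnd1 (1.72-fold lower, adjusted p = 0.0049, limma), Cenpa (2.58-fold, adjusted p = 2.2e-05) and Ccnd2 (2.92-fold, adjusted p = 7.86e-06). Of the replication genes, Mcm6 was 17.2-fold, Mcm5 13.8-fold, Mcm2 11.8-fold, Tyms 9.26-fold and Rrm1 7.01-fold lower in adult wildtype hearts.

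Read per heart as a share of the E14 signal, the phases stood at different heights. In mitosis the median over 11 genes was 11.8%, 11.6% and 8.41% of E14 in the 1 week hearts, 2.94%, 11.02% and 3.01% in the 72 h hearts, 3.19%, 2.93% and 3.07% in MCM hearts and 4.77% and 3.14% in adult wildtype hearts. Each 1 week heart and 72 h replicate 2 thus lay above the other adult hearts, yet far below the embryo. In replication the medians were 12.3%, 14.6% and 13.6% at 1 week, 8.97%, 18.1% and 9.96% at 72 h, 7.89%, 8.23% and 7.91% in MCM hearts and 9.90% and 11.4% in adult wildtype hearts. In G1 entry they were 19.4% to 23.2% at 1 week and 18.0% to 19.9% at 72 h. MCM hearts had 15.5% to 18.4% and adult wildtype hearts 17.8% to 17.9% in that phase. The gene at the median was not the same in each heart (Ccnd2 in 1 week replicate 1, Cdk4 in MCM replicate 1). Taken gene by gene, the G1 median was 0.03, -0.09 and -0.07 from the MCM mean in the 1 week hearts. These shares thus do not show G1 entry raised at 1 week. For a gene dark in a heart, the share is what background leaves of the E14 signal, so low shares are upper limits. Genes of the same phase differed widely: at 1 week Tyms reached 20.7% to 24.4% of E14, Mcm2 7.55% to 8.29% and Top2a 4.18% to 6.11%.

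**Figure D4:**
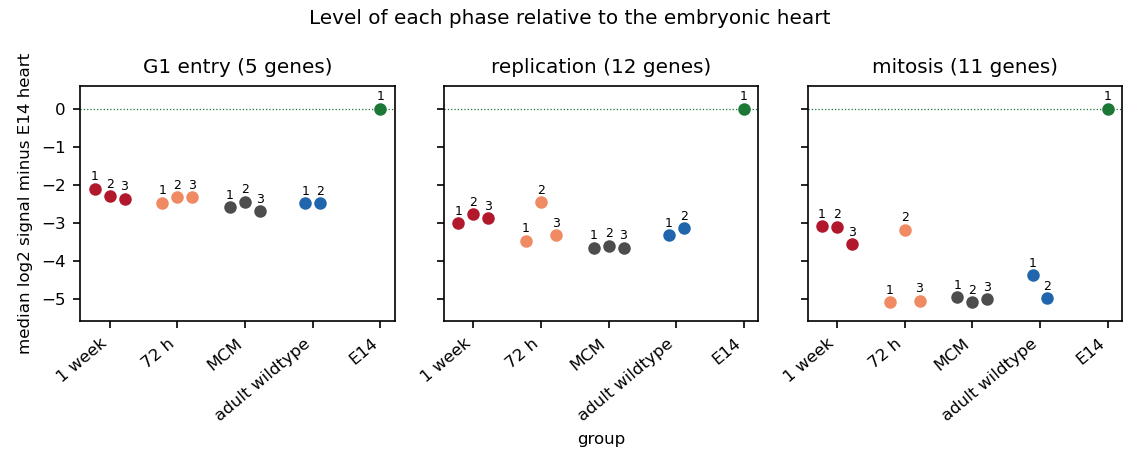
Median over the genes of each phase of the log2 signal minus that of the E14 heart (y axis), per heart (points with replicate number) and group (x axis). The mitosis panel separates the 1 week hearts and 72 h replicate 2, at -3.57 to -3.09, from the other adult hearts, at -5.09 to -4.39, while the G1 panel spans less, with 1 week hearts at -2.37 to -2.11 and MCM and adult wildtype hearts at -2.69 to -2.45.

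Some markers of other cell types moved with these values. The summed signal of 12 macrophage and leukocyte markers was 37506 to 43528 in 1 week hearts, 8402, 22679 and 7253 in 72 h replicates 1, 2 and 3, 7210 to 7807 in MCM hearts, 7633 to 7811 in adult wildtype hearts and 3583 in the E14 heart. It was thus high in the same 4 adult hearts as the mitotic genes. Between 8 and 10 of these 12 markers were detected per heart, and the defining markers Ptprc and Itgam were detected in none. Col1a1, the collagen gene of fibroblasts, showed the same hearts, with 11.58, 11.75 and 11.93 at 1 week, 10.35, 12.0002 and 9.87 at 72 h, 10.03 to 10.24 in MCM and 10.14 to 10.25 in adult wildtype hearts, and 12.64 in E14. Col1a2 and, mostly below detection, Postn showed them too. The fibroblast markers Dcn, Tcf21, Dpt and Lum did not, and overlapped between 1 week and MCM hearts. The median log2 signal over 9 fibroblast markers was 10.97 to 11.19 at 1 week, 9.87 to 10.31 at 72 h, 10.03 to 10.24 in MCM, 10.14 to 10.25 in adult wildtype and 10.67 in E14 hearts, so the 1 week hearts lay above every other heart, 72 h replicate 2 among them. Their sum overlapped between groups (39649 to 44871 at 1 week, 31220 to 41000 at 72 h, 32391 to 40459 in MCM, 36108 to 38449 in adult wildtype and 26680 in E14 hearts). The sum of 8 heart muscle markers was lowest of the adult hearts at 1 week, 247408 to 250178, against 310709 to 327913 at 72 h, 325246 to 331220 in MCM, 311078 to 314817 in adult wildtype and 156779 in E14 hearts. Endothelial markers (8 of 9 detected in every heart) spanned 20014 to 24824 over all hearts. The 5 erythroid markers summed to 56720 to 59894 at 1 week, 22286 to 40733 at 72 h, 23381 to 38131 in MCM, 67181 to 70148 in adult wildtype and 52917 in E14 hearts. Of 3 T and B cell markers none was detected in an adult heart and 2 in the E14 heart. The part of these cell types in the result was not tested.

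The wider pathway was read from 4 further lists of 131 genes, of which 106 were tested. At 1 week 42 rose and 14 fell relative to MCM (39.6% and 13.2%, beside 27.3% and 26.7% of all genes; median 0.31). Without 72 h replicate 2, 51 rose and 15 fell (48.1% and 14.2%, beside 30.4% and 29.6% of all genes). At 72 h 0 of 106 passed with limma, with 10 at an unadjusted p below 0.05. Genes of the spindle, kinetochore, condensin and cytokinesis rose in 21 of 39 (53.8%) and fell in 2, those of replication origins, forks and nucleotides rose in 12 of 36 (33.3%) and fell in 6, and transcription factors and kinase regulators rose in 7 of 22 (31.8%) and fell in 5. The last 2 shares that rose lie near that of all genes.

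Anln, the anillin of the cleavage furrow, had 8.88, 9.24 and 8.78 in 1 week hearts and 5.72, 5.55 and 6.19 in MCM hearts, at least 4.32-fold higher (adjusted p = 0.00121, limma). Kif22, a chromosome motor, was at least 3.70-fold higher (adjusted p = 0.00143). Both had 8.53 in 72 h replicate 2 and between 5.38 and 5.66 in the other 72 h hearts. The spindle checkpoint gene Bub3 (-0.61) and the condensin gene Ncapd2 (-0.56) fell. Dbf4, which activates the origin kinase Cdc7, and Mcm10, an origin firing factor, were dark in MCM hearts and at least 2.57-fold and at least 1.014-fold higher at 1 week (adjusted p = 0.000334 and 0.00439, limma). Dut and Ung, which keep uracil out of DNA, fell by 1.16 (detected in 2 of 3 hearts at 1 week) and by 0.79. E2f2 and E2f3 activate replication genes. E2f2 rose by 1.86, with 1 of 3 MCM hearts detected, and E2f3 was dark in MCM hearts and at least 1.75-fold higher (adjusted p = 0.000197 and 0.00025, limma). Ccnh, the cyclin of the kinase that activates other cyclin-dependent kinases, fell by 0.72, and Cdc25a, the phosphatase that activates Cdk2, was dark at 1 week and at least 1.57-fold lower.

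Of 9 inhibitors of the cell cycle tested, 2 rose at 1 week (22.2%) and 1 fell (11.1%), both below the shares of all genes. Cdkn1a, the p21 inhibitor of cyclin-dependent kinases, had 12.33, 12.81 and 12.35 in 1 week hearts and 9.27, 9.77 and 8.66 in MCM hearts (3.26 ± 0.43, adjusted p = 9.24e-05, limma). It had 9.30, 10.73 and 8.55 in the 72 h hearts, 10.57 and 10.44 in adult wildtype hearts and 9.89 in the E14 heart. Replicate 2 was again the highest at 72 h, yet near the adult wildtype hearts. Cdkn2b, the p15 inhibitor of Cdk4, was dark in MCM hearts and at least 2.38-fold higher at 1 week, and Cdkn1b, the p27 inhibitor, was dark at 1 week and at least 1.502-fold lower (adjusted p = 8.18e-06, limma). In adult wildtype hearts relative to E14, 3 of the 106 genes rose (2.83%) and 90 fell (84.9%, beside 30.4% of all genes). Without 72 h replicate 2 the share of the 106 that rose was again 2.83%, beside 30% of all genes. A gene of these lists could enter the test through the E14 array alone, so these counts do not stand for the lists as a whole. Rb1 (1.07), Tfdp2 (1.37) and E2f6 (0.67) were the 3 that rose, and Cdkn1c, the p57 inhibitor, detected in all of these hearts, was 18.2-fold lower. E2f1 and Anln were dark in both adult wildtype hearts and at least 16.05-fold and at least 28.7-fold lower.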

How the data were processed

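RNA of 12 hearts was hybridised to Illumina bead arrays, 1 array per heart, grouped by the labels. Per the file headers, the authors deposited for each of 45281 probes a mean bead signal (an intensity on a linear scale, neither normalized nor background-corrected), the number of beads and a detection score, a fraction between 0 and 1. Their deposited value table holds normalized intensities; a mapping of 100 quantiles onto adult wildtype replicate 1 gave the same values for all probes within a tolerance of 0.001, so its scale is linear, it is not centred, and its column medians were 129.5 to 129.8. Probes were linked to that table and to the platform annotation's gene symbols by these values. No genome build of the probes is given in the sources used here.

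Detection p was 1 minus the score. Signals were corrected with nec (offset 16), quantile-normalized and log2-transformed with limma 3.58.1 in R 4.3.3. A probe entered if all arrays of any 1 group had a detection p below 0.01 for it, which left 18370 probes and 10169 genes at 1 probe each. Groups were compared with lmFit on group means and eBayes with an intensity trend, with Benjamini-Hochberg adjustment over all genes, and 7 residual degrees of freedom; the number of arrays limits the precision. The test was tried on simulated data with known changes. Nothing says whether hearts of a group are of separate litters, so p-values measure the spread between these hearts. A bound ("at least") sets the brighter group's mean against, on each dark array, the lowest signal of any detected probe, or the gene's own signal where that is higher.

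All genes of the set and 2 genes up and 2 down per wider list and comparison, with the largest change among those detected in every heart of at least 1 of the groups compared, were to be named; further genes were named after their values were seen. The set, the lists and the rules were chosen with earlier results of these data known. Same-numbered hearts of different groups did not deviate together (correlations from -0.041 to 0.306), so numbers were not used as pairs. Alternatives were the authors' table, no background correction, other probe filters, the mean of a gene's probes, array weights, the replicate number as a block, the compared groups alone and leaving out each heart.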

Additional observations from a re-analysis of the deposited data

Results flagged for a closer look

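The 1 week and 72 h hearts differed in 6 genes of the set by a test of the difference between both times (limma, adjusted p below 0.05 over all genes). The differences, 1 week minus 72 h, were 1.49 for Plk1, 1.36 for Cdc20, 1.15 for Rrm2, -0.34 for Cdk4, -0.88 for Cenpa and -1.26 for Ccnd2. Without 72 h replicate 2 they were 2.16, 2.07, 1.30, -0.28, -0.997 and -1.17, and each passed.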

How the results depend on the processing

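At 1 week against MCM, the 12 changed genes became 4 with only the 10 genes detected on all 12 arrays tested, 19 with array weights (72 h replicate 2 had the lowest, 0.156), 19 with only the groups compared and 10 to 17 on leaving out 1 heart. Against 72 h the 6 became 3, 18, 3 and 4 to 16 (16 without 72 h replicate 2). Against adult wildtype the 9 became 3, 17, 19 and 4 to 17, the lowest without either adult wildtype heart. For MCM against adult wildtype the 1 became 3 with array weights, 5 with only the groups compared and 0 to 5 on leaving out 1 heart. For 72 h against adult wildtype it became 5, 0 and 0 to 2. For 72 h against MCM it was 0 in each setting run. At 1 week against MCM, more of all genes changed too with array weights, with only the groups compared and without 72 h replicate 2. The higher counts in these settings therefore do not by themselves set these genes apart from others, and the difference was not tested. In each comparison with E14 the 28 stayed 28 on leaving out 1 heart and became 10 with the filter that tests 10. With the replicate block, fitted on the 11 arrays without E14 since the numbers do not pair hearts, 14 genes changed at 1 week against MCM and 11 against adult wildtype, with the other counts as reported (0, 6, 1 and 1). No gene called at 1 week against MCM or in adult wildtype against E14 turned its direction. Differences that did not pass changed sign in at least 1 setting for 7 of 28 genes at 1 week against MCM, such as Cdk4 (0.33) and Mcm4 (-0.02) with the mean of a gene's probes, and for 10 of 28 at 72 h against MCM, such as Cdc20 (-0.12 with array weights). Apart from Tk1 and Mcm5, the genes called at 1 week against MCM passed in every setting that tested them. The cause of these shifts was not tested. Signal near background limits the mitotic genes: in adult hearts outside 1 week and 72 h replicate 2, 1 or 2 of 11 were detected.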
